A study of Mus musculus with 2 samples.

Results

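The cytosolic ribosomal protein genes were taken as every row whose symbol begins with Rps or Rpl followed by a digit, without the rows marked -ps (names of pseudogene-like copies) and without the Rps6k kinases. This rule found 83 of the 27998 genes, 33 with small-subunit and 50 with large-subunit symbols. Of these, 73 code for proteins of the canonical ribosome. The other 10 are paralogs or genes that share only the symbol, namely Rpl3l, Rpl6l, Rpl7l1, Rpl10l, Rpl22l1, Rpl36al, Rpl39l, Rps27l, Rps27rt and Rps19bp1, the last of which codes for a protein that binds Rps19. The rule also leaves out 6 cytosolic ribosomal protein genes with other symbols, such as Rpsa and Rplp0, which are given below as a separate list. No measured value chose the members, and 81 of them had at least 100 unique molecular identifiers (UMIs, one per captured mRNA molecule) over both libraries.

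The data were 1 droplet library of γδ T cells from the liver and 1 from the thymus of wild-type, untreated C57BL/6J mice aged 8 weeks, both sorted as CD3e+ TCRγδ+ cells. Animals were pooled, and the thymic suspension alone was depleted of CD4+ and CD8+ cells on magnetic beads before the sort. With 1 library per tissue there is no replicate spread, so no test was made, and tissue, library and depletion cannot be told apart. Intervals are exact 95% intervals and cover counting error only. Cells with 800 to 4000 detected genes and at most 6% mitochondrial UMIs were kept, which left 8075 hepatic cells with 24168037 UMIs (median 2741 per cell) and 4351 thymic cells with 17064752 UMIs (median 3271 per cell). The libraries shared 60 cell barcodes, of which 56 were kept in both. The CD3 genes Cd3e, Cd3g, Cd3d and Cd247 summed to 4029 UMIs per 1000000 (CPM) in the liver and 3372 CPM in the thymus, while Cd4 was 1.32 CPM in the liver and 0.47 CPM in the thymus. Cd8b1, another αβ T cell gene, stood higher than Cd4 in some classes, as given below. Cd8a is not given here, so Cd4 alone does not measure αβ T cells.

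Ribosomes are built from a small subunit, which reads the mRNA, and a large subunit, which joins amino acids, and each protein is needed in about one copy per particle. Most mRNAs of these proteins begin with a run of pyrimidines at the 5′ end (the TOP motif), through which growth signals by way of mTOR and Larp1 set how strongly they are translated. In T cells the family has a known link to lineage choice, since loss of Rpl22 in mice blocks αβ T cell development and largely spares γδ T cells.

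Ribosomal protein mRNAs made up 24.8% of all UMIs in the hepatic library (24.8% to 24.9%) and 30.9% in the thymic library (30.9% to 31.0%). Over single cells the share had a mean of 24.4% ± 5.96 (SD over 8075 cells) in the liver and 30.7% ± 3.81 (SD over 4351 cells) in the thymus. The middle 90% of cells spanned 16.4% to 36.05% in the liver and 24.2% to 36.5% in the thymus. The hepatic cells were thus spread more, and their median of 23.6% lay below the thymic 5th percentile of 24.2%. The libraries therefore overlapped mainly in the upper part of the hepatic range. The median cell held 642 ribosomal protein UMIs beside 2080 other UMIs in the liver, and 1021 beside 2248 in the thymus. When each cell was thinned to 1500 UMIs, the shares were 24.5% and 30.8%. The 5 members with the most UMIs were Rps27, Rps29, Rpl13a, Rpl41 and Rpl37a in the liver, together 15.5% of the ribosomal protein UMIs, and Rpl41, Rps27, Rps29, Rpl13a and Rpl13 in the thymus, together 13.7%. Rps27 and Rps29 code for small zinc-binding proteins of the small subunit, and Rpl41 codes for the smallest protein of the large subunit. Small-subunit genes held 45.9% of the ribosomal protein UMIs in the liver and 45.3% in the thymus.

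To follow the family by thymic stage and hepatic cell type, cells of both libraries were clustered with all ribosomal protein and mitochondrial genes left out, and clusters were called after marker genes. The thymus held 2467 immature-like cells in 2 clusters, 990 cells of a cluster led by Cd200 and S1pr1, 533 cycling cells, 176 precursor-like cells and 167 IL-17-like cells. The liver held 2986 cells of a class marked by Cd28 and Socs2, 2619 NK-like, 1111 precursor-like, 795 IL-17-like, 277 terminal effector-like, 105 myeloid-like and 81 interferon-response cells, with 41 cells each in the cycling class and in the Cd200 S1pr1 cluster. The Cd200 S1pr1 cluster was given no class name because hemoglobin genes were among its leading genes, and the erythroid list summed to 310 CPM in its thymic cells against 48.7 CPM in immature-like cells. Myeloid-like cells still held 909 CPM of the CD3 genes, against 3883 CPM in the Cd28 Socs2 class, and whether they hold doublets was not tested. The precursor-like class was led by Dapl1, Ly6c2, Nsg2 and Ccr7, and Cd8b1, a gene of αβ T cells that is also among its leading genes, was 48.3 CPM in its hepatic and 20.8 CPM in its thymic cells. Its thymic cells are less secure than its hepatic ones, since 40 of the 176 kept the name at a finer resolution and 0 when the thymus was clustered alone, against 999 and 994 of the 1111 hepatic cells. Clustered alone, the thymus gave a cluster called NK-like (score 3.64, type-1 next at 3.09), led by Ly6c2, Xcl1 and Gzmb. How many of the thymic precursor-like cells fell into that cluster is not given here, so they may include effector-like cells. The immature-like name is not firm either: the cluster led by Tnfsf11 scored 2.17 for immature and 2.01 for primed markers, and with the thymus clustered alone no cluster was called immature-like.

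Hepatic precursor-like cells had the highest share of the liver, 33.7% (33.6% to 33.7%), and NK-like cells had 20.4% (20.4% to 20.5%), a difference of 13.2 percentage points. Between them lay the Cd200 S1pr1 cluster at 28.1%, IL-17-like cells at 26.1%, the Cd28 Socs2 class at 24.97%, cycling cells at 24.0%, interferon-response cells at 22.8% and terminal effector-like cells at 22.3%. Myeloid-like cells were lowest at 19.5%. The median NK-like cell held 537 ribosomal protein UMIs beside 2155 other UMIs, and the median precursor-like cell held 1017 beside 1958. These medians differed more in the ribosomal protein UMIs than in the rest. Within a class the SD over cells ran from 3.36 percentage points in NK-like cells to 7.09 in the 41 cycling cells.

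The thymic classes were closer together. Precursor-like cells had 34.98% (34.9% to 35.1%), immature-like cells 31.8% (31.8% to 31.8%), the Cd200 S1pr1 cluster 29.9%, cycling cells 29.8% and IL-17-like cells 28.3% (28.2% to 28.5%). The 2 immature-like clusters, one led by Tnfsf11 and Hes1 and the other by Tox2, Cpa3 and Dntt, had 31.1% and 32.4%. In each of the 4 classes found in both libraries the hepatic cells had the lower share: precursor-like 33.7% against 34.98%, Cd200 S1pr1 cluster 28.1% against 29.9%, IL-17-like 26.1% against 28.3%, and cycling 24.0% against 29.8%. Spearman's rho between a cell's share and its total UMIs ran from -0.08 in myeloid-like cells (105 cells) to 0.38 in the 41 hepatic cells of the Cd200 S1pr1 cluster. These points share a library, and the members' UMIs are part of the total.

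**Figure D1:**
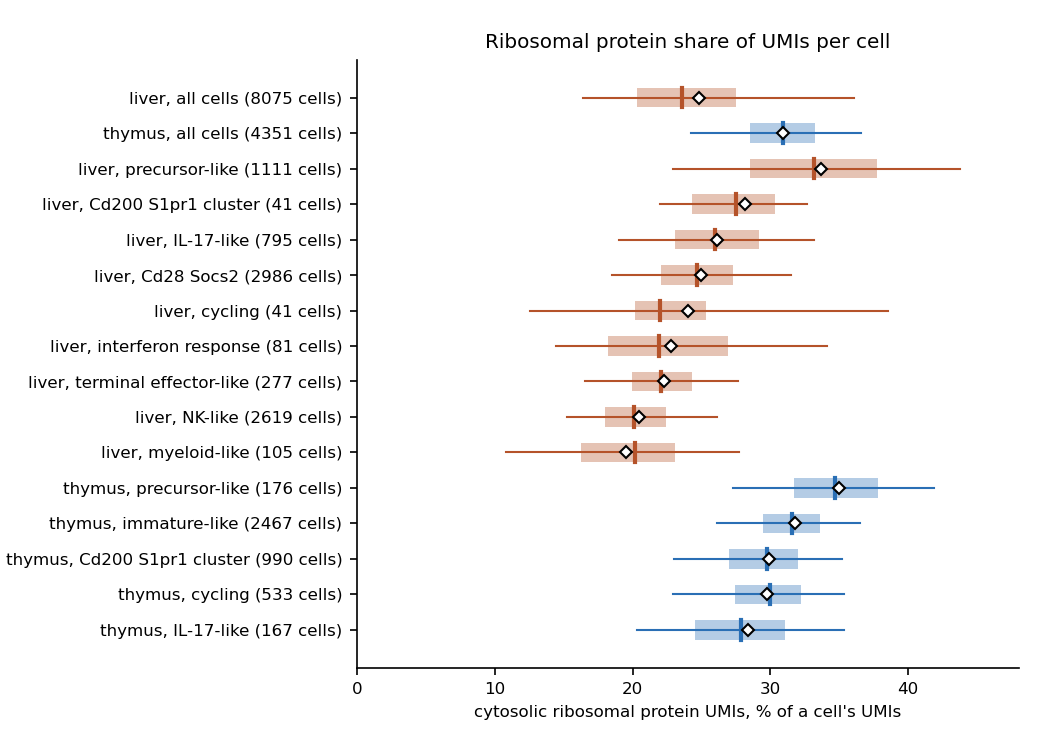
The percent of a cell's UMIs that came from ribosomal protein genes (horizontal axis) is plotted for each library and class, with boxes from the 25th to the 75th percentile of cells, lines from the 5th to the 95th, thick bars at the median cell and diamonds at the share of summed UMIs. Precursor-like cells stand highest in both libraries (33.7% and 34.98%), and NK-like and myeloid-like cells of the liver stand lowest (20.4% and 19.5%).

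Single members mostly moved with the family. Between the hepatic and the thymic library 75 of the 81 members with at least 100 UMIs had a lower CPM in the liver and 6 a higher one, with a median log2 ratio (liver over thymus) of -0.34, a fold of 0.791. Over all 9827 genes with as many UMIs the median was -0.21, and 61.4% were lower in the liver. A member was called departing when its log2 ratio lay at least 0.5 from that median of the members. This held for 9 of the 81, 3 above and 6 below, whereas 50.6% of all genes lay as far from the median of all genes, 26% above it and 24.5% below. The members are among the most deeply counted genes, and the spread of all genes includes the counting error of genes with few UMIs. The median distance from the centre was 0.17 for the members and 0.51 for all genes. Of the departing members Rps26 (-0.53) lay nearest to the limit. Of those that did not depart the nearest was Rps27, whose departure of 0.496 prints as 0.50, followed by Rpl6l (-0.46).

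Of the small-subunit proteins, Rps21 was 2146 CPM in the liver and 1708 CPM in the thymus, a log2 ratio of 0.33 and a departure of 0.67 (0.65 to 0.69). Rps26, which lies at the path by which mRNA leaves the ribosome, was 1839 CPM against 3355 CPM, a departure of -0.53 (-0.55 to -0.51). Rps21 thus stood higher in the liver while the family stood lower, and Rps26 stood lower than the family.

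Of the large-subunit proteins, Rpl38, known from the mouse mutant Tail short for its part in translating Hox mRNAs, was 4084 CPM in the liver and 3199 CPM in the thymus, a departure of 0.69 (0.67 to 0.71). Rpl15 was 1390 CPM against 3036 CPM, a departure of -0.79 (-0.81 to -0.77). Rpl28 was 1297 CPM against 2495 CPM (-0.61) and Rpl35 was 2627 CPM against 4884 CPM (-0.56). Rps26, Rpl15 and Rpl35 are among the genes mutated in Diamond-Blackfan anemia. Rps27l, the paralog of Rps27 that p53 induces, was 101 CPM in the liver and 211 CPM in the thymus, a departure of -0.72 (-0.80 to -0.65), which shrank to -0.31 without the cycling cells and to -0.41 after thinning to 1500 UMIs. Rpl39l, a paralog of Rpl39 best known from male germ cells, had 154 UMIs in the liver and 25 in the thymus, a departure of 2.43 (1.84 to 3.13) at levels of 6.37 and 1.47 CPM.

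**Figure D2:**
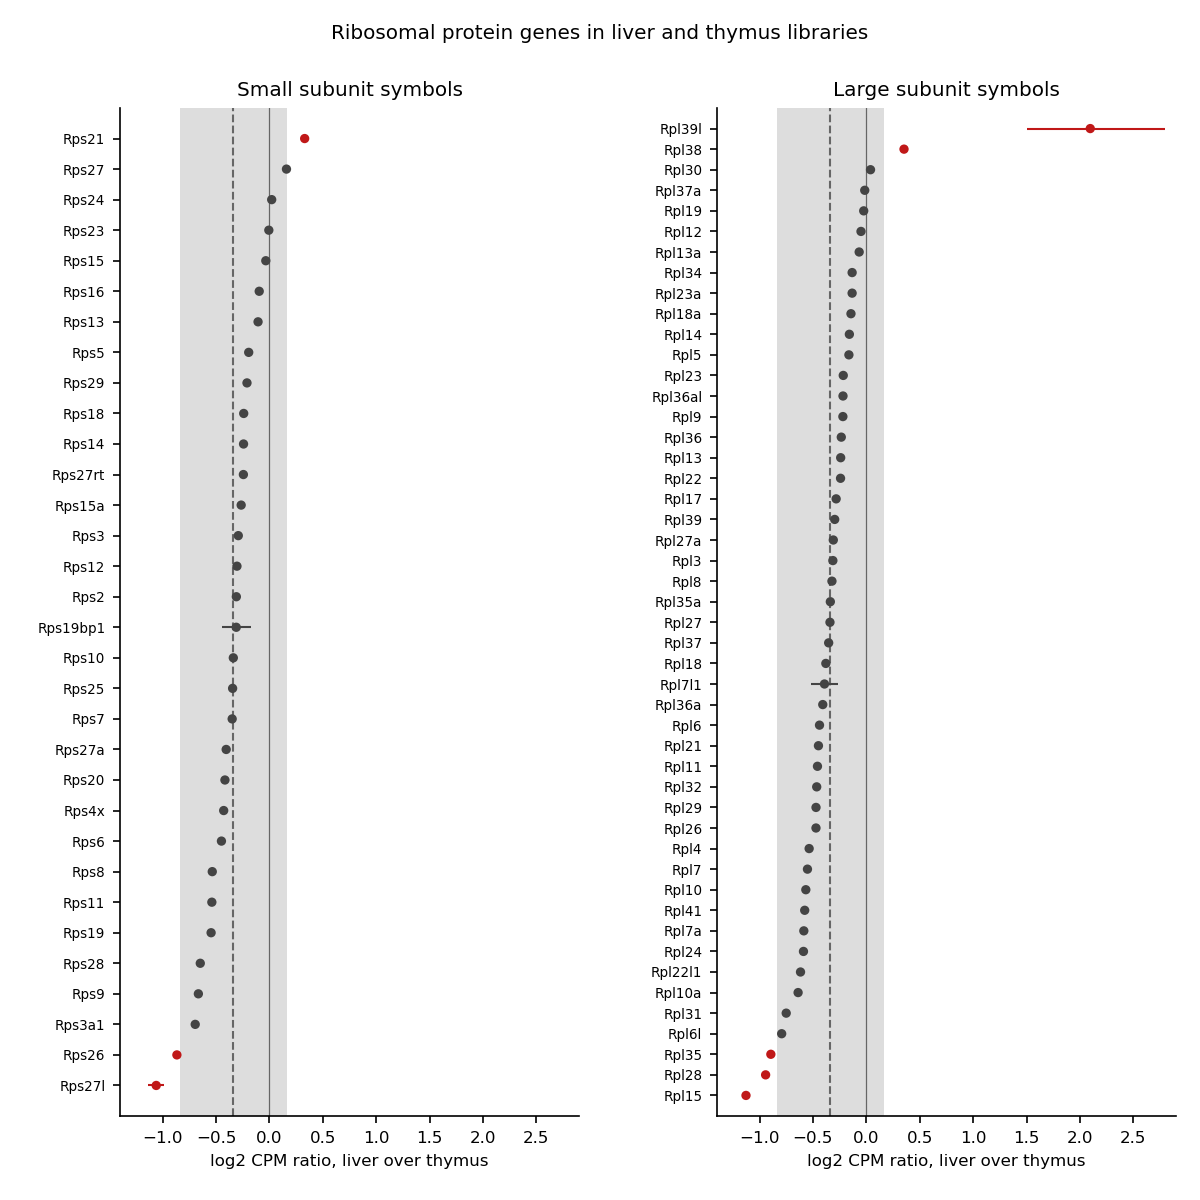
The log2 CPM ratio of liver over thymus (horizontal axis) is plotted for 80 of the 81 members with at least 100 UMIs, small-subunit symbols on the left and large-subunit symbols on the right, with lines for 95% counting intervals. The dashed line is the median of the members (-0.34), the band spans 0.5 to either side, and departing members are drawn in red.

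Start sites of 8 departing members were read from the RefSeq annotation of mouse build GRCm38.p6, and the windows are shown because the TOP motif begins at that base. Each window runs from 25 bases before the start to the first 15 bases of the transcript, 5′ to 3′ on the gene's strand. The positions are chr14:18270972-18271011 (minus strand) for Rpl15, chr7:4792940-4792979 (plus) for Rpl28, chr2:39005117-39005156 (minus) for Rpl35, chr2:180257354-180257393 (plus) for Rps21, chr11:114668555-114668594 (plus) for Rpl38, chr10:128626492-128626531 (minus) for Rps26, chr9:66946061-66946100 (plus) for Rps27l and chr16:10170203-10170242 (plus) for Rpl39l. For Rps21 and Rps27l the first of 2 annotated starts is shown. Capitals mark the unbroken run of C and T that spans the start base, where there is one.
Rpl15: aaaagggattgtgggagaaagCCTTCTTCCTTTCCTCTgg
Rpl28: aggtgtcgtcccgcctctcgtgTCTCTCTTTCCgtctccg
Rpl35: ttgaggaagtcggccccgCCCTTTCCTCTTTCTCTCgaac
Rps21: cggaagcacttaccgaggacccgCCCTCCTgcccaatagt
Rpl38: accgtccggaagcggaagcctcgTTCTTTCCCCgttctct
Rps26: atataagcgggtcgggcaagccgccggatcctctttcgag
Rps27l: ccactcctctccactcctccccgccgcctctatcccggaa
Rpl39l: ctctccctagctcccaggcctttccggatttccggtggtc
A C at the start shown, followed by 4 pyrimidines, was found for Rpl15, Rpl28, Rpl35, Rps21 and Rpl38. These include members that stood lower and members that stood higher than the family in the liver. The other annotated start of Rps21 lacked this pattern. Over all members with an annotated start, 13 of 63 (20.6%) had this pattern exactly at the start, beside 813 of 27025 genes (3.01%), 2 of 11 translation factors and 0 of 69 mitochondrial ribosomal proteins. Read anywhere within 10 bases of the annotated start, it was found for 39 of 63 members (61.9%) and for 33.3% of all genes, 30 of 69 mitochondrial ribosomal proteins (43.5%) and 4 of 11 translation factors (36.4%). A match says only that these letters stand in the window.

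The hepatic and thymic libraries hold different classes, so the departing members were also read within the classes found in both. There 0 of 80 members departed in IL-17-like cells, 1 each in the Cd200 S1pr1 cluster and in cycling cells, and 3 in precursor-like cells, where 24.6%, 40.1%, 44.3% and 28.5% of all genes did in that order. The median distance of the members from their centre was 0.07 in IL-17-like, precursor-like and Cd200 S1pr1 cells and 0.11 in cycling cells. Rps27rt, a retrotransposed copy of Rps27, was the member in cycling cells (486 CPM in the liver against 869 CPM in the thymus, -0.53) and in the Cd200 S1pr1 cluster (925 against 1474 CPM, -0.59), and it departed in precursor-like cells too (1374 against 2161 CPM, -0.60), beside Rps19bp1 (110 against 27 UMIs, -0.61) and Rpl7l1 (139 against 32 UMIs, -0.52). The intervals of Rps19bp1 and Rpl7l1 reached 0.07 and 0.10. Of the Rps27 and Rps27rt UMIs, Rps27rt took 7.88% to 9.98% over the hepatic classes and 11.9% to 13.7% over the thymic ones. Its share of the pair thus differed by library in all classes alike. Most of its 3′ end is shared with other transcripts, as given below, and the part of read assignment was not tested. None of the 8 departing members of the whole libraries other than Rpl39l lay 0.5 from the centre in any of these 4 classes. Rpl15 came nearest, at -0.47 in cycling cells, -0.31 in IL-17-like cells, -0.27 in precursor-like cells and -0.03 in the Cd200 S1pr1 cluster. Rpl39l had fewer than 100 UMIs over both groups in each of them.

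Along the thymic stages, each class was set beside the immature-like cells. In the Cd200 S1pr1 cluster 0 of 80 members departed beside 19.6% of all genes, and the median log2 ratio was -0.10. IL-17-like cells had 4 departing members where 51% of all genes departed. Rps2 lay above the family (3737 CPM in IL-17-like against 2502 CPM in immature-like cells, departure 0.78), as did Rpl38 (3863 against 3015 CPM, 0.56), while Rpl28 (1552 against 2535 CPM, -0.51) lay below it. Precursor-like cells also had 4, beside 46.1% of all genes, with Rpl38 at 5014 CPM (0.60), Rpl28 at 1950 CPM (-0.51) and Rps27l at 120 CPM from 69 UMIs (-0.51). Of the 2 immature-like clusters, the one led by Tox2, Cpa3 and Dntt had more Rps27l (193 against 117 CPM, departure 0.66), the single member of 80 that departed beside 24.4% of all genes.

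In thymic cycling cells 8 of 80 members departed beside 43.9% of all genes. Rps27l was 392 CPM in cycling and 157 CPM in immature-like cells, a departure of 1.39 (1.28 to 1.49), and Rps2 was 4394 against 2502 CPM, 0.87. Rpl3, which reaches towards the peptidyl transferase centre and was named after its values were seen, was 4273 against 2980 CPM (0.58), and Rpl22l1 was 1990 against 1371 CPM (0.60). Rpl7l1 (79.8 against 54.7 CPM, 0.61) and Rps19bp1 (66.2 against 45.7 CPM, 0.60) lay above the family as well. Rps27 ran the other way from its paralog, at 6440 against 10285 CPM (-0.61), and so did Rps27rt at 869 against 1441 CPM (-0.67). The median over the members was -0.06. Cycling cells were deeper, with a median of 7066 UMIs per cell against 3186.

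In the liver, each class was set beside the Cd28 Socs2 class. At resolution 0.8 and with the liver clustered alone, an unnamed cluster led by Lilr4b and Lilrb4a appeared beside this class. How many of its cells came from the Cd28 Socs2 class is not given here. NK-like cells had a lower CPM for 77 of 81 members, where 51.9% of all genes were lower, with a median log2 ratio of -0.29, and 0 of the 81 departed beside 12.7% of all genes. Precursor-like cells had a higher CPM for 77 of 80, where 30.9% of all genes were higher, with a median of 0.43, and 3 of the 80 departed beside 23.5% of all genes. These were Rps19bp1 (110 against 354 UMIs, -0.88), Rpl7l1 (37.9 against 50.4 CPM, -0.84) and Rps27l (91.7 against 103 CPM, -0.60), none of them a protein of the canonical ribosome. IL-17-like and terminal effector-like cells had 0 departing members of 80, beside 29% and 28.8% of all genes, with medians of 0.08 and -0.15. Interferon-response cells had 1, Rps19bp1, from 4 UMIs (-0.99, -3.04 to 0.22), beside 34.9% of all genes.

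The hepatic cells of the Cd200 S1pr1 cluster, 41 in all, had 10 departing members of 80 beside 53.9% of all genes. Against the Cd28 Socs2 class they held more Rpl15 (2637 against 1274 CPM, departure 0.85), Rpl28 (2256 against 1089 CPM, 0.85), Rps26 (3270 against 1600 CPM, 0.83) and Rpl35 (4000 against 2250 CPM, 0.63). They held less Rps21 (1688 against 2259 CPM, -0.62), Rps27rt (925 against 1219 CPM, -0.59) and Rpl38 (3384 against 4416 CPM, -0.58), while Rpl7l1 rested on 4 UMIs (-0.67, -2.72 to 0.53). The 4 named first are among those that lay below the family in the hepatic library as a whole, and Rps21 and Rpl38 those above it. Both comparisons use the Cd28 Socs2 cells, so they are given side by side and not as separate support.

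The 41 hepatic cycling cells had 12 departing members of 80 beside 51.9% of all genes. Rps27l was 301 CPM against 103 CPM (departure 1.55, 1.22 to 1.86), Rpl28 2096 against 1089 CPM (0.94) and Rpl35 3606 against 2250 CPM (0.68). Rps27rt (486 against 1219 CPM, -1.32) and Rps27 (5680 against 11268 CPM, -0.99) lay below, as in the thymic cycling cells. Rps19bp1 departed on 21 UMIs (0.76, 0.02 to 1.36). Their summed myeloid list was 531 CPM and Cd8b1 was 81.0 CPM from 25 UMIs, against 79.9 and 4.28 CPM in the Cd28 Socs2 class, and their part in these values was not tested.

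Myeloid-like cells had 8 departing members of 80 beside 49.7% of all genes. Rps27l was 226 CPM from 93 UMIs against 103 CPM (1.52, 1.19 to 1.82). Rpl10, which joins the large subunit late in its maturation, was 3470 against 2856 CPM (0.66), and Rpl12, at the base of the stalk that binds elongation factors, was 960 against 1939 CPM (-0.63). Rpl28 and Rpl35 both lay 0.59 above the family and Rps25 0.58.

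**Figure D3:**
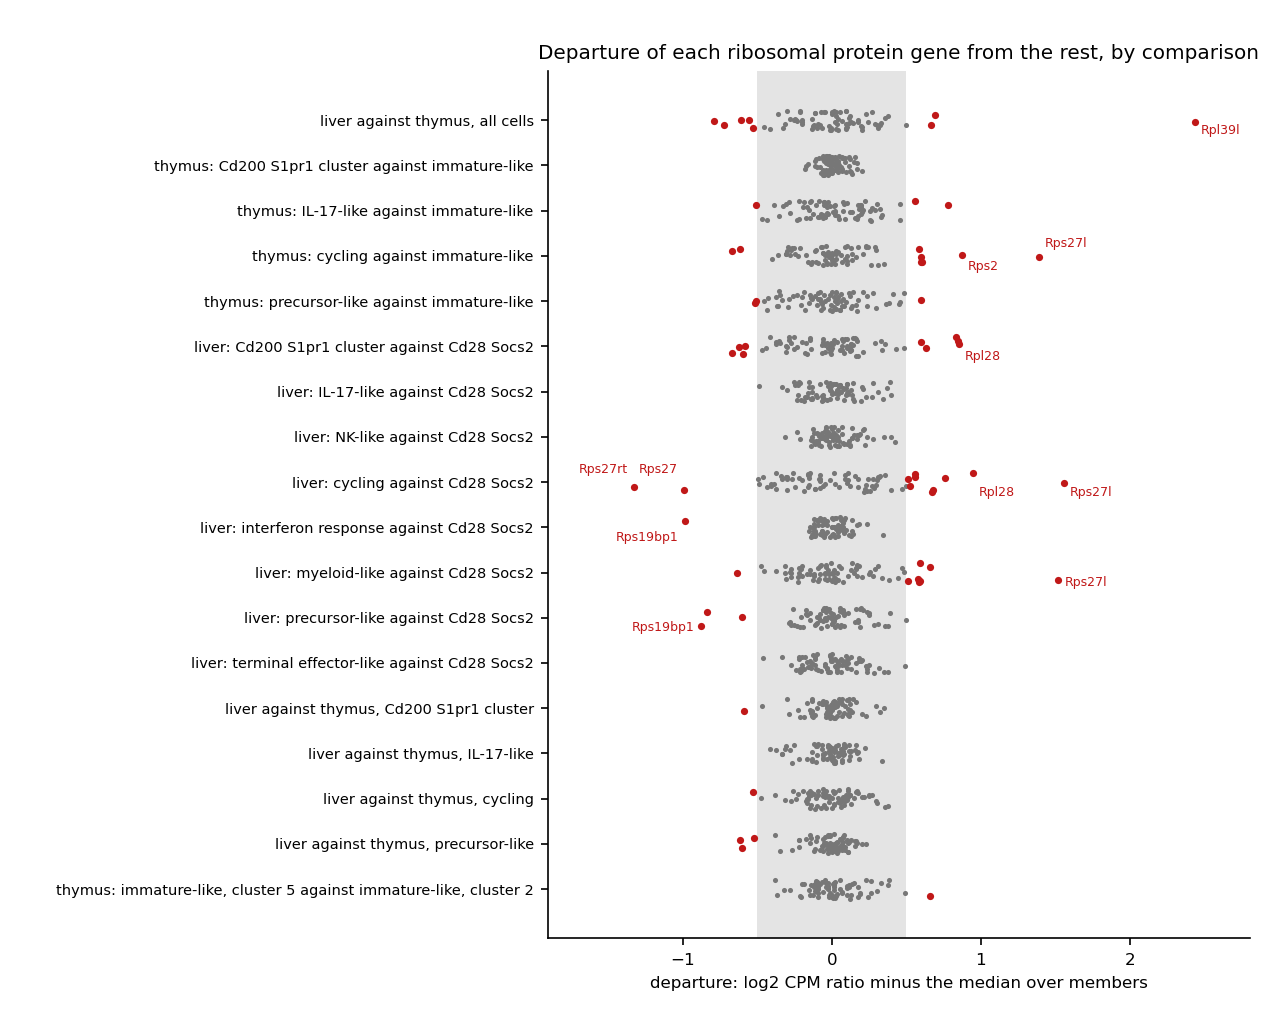
Each point is 1 member with at least 100 UMIs over both groups, with 1 member not shown, placed by its log2 CPM ratio minus the median over members (horizontal axis) in each comparison (vertical axis, first group against second), with the band at 0.5 to either side and departing members in red. Points are shifted at random along the vertical axis, and immature-like cluster 5 is the one led by Tox2 and cluster 2 the one led by Tnfsf11. Rps27l stands at 1.39 and 1.55 in cycling cells and 1.52 in myeloid-like cells, while comparisons of the same class between the libraries stay mostly within the band.

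Across the 14 classes of both libraries the share of the ribosomal protein pool held by a member ranged by a median of 0.50 on the log2 scale, and 41 of 81 members ranged by under 0.5. The range reached 1 or more for 9 members, of which Rpl39l, Rps19bp1 and Rpl7l1 rest on few UMIs in the small classes. Among the well-counted members, Rpl28 (1.13) and Rpl15 (1.00) had their highest share in thymic cycling cells and their lowest in the hepatic Cd28 Socs2 class. Rpl38 (0.90) and Rps21 (0.83) ran from NK-like cells, the highest, to thymic immature-like cells, the lowest. Rps27 (1.07) was highest in NK-like and lowest in thymic cycling cells, and Rps2 (1.02) highest in hepatic cycling and lowest in immature-like cells. Rpl6 and Rpl23, both at 0.21, had the smallest ranges and were named after their values were seen.

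**Figure D4:**
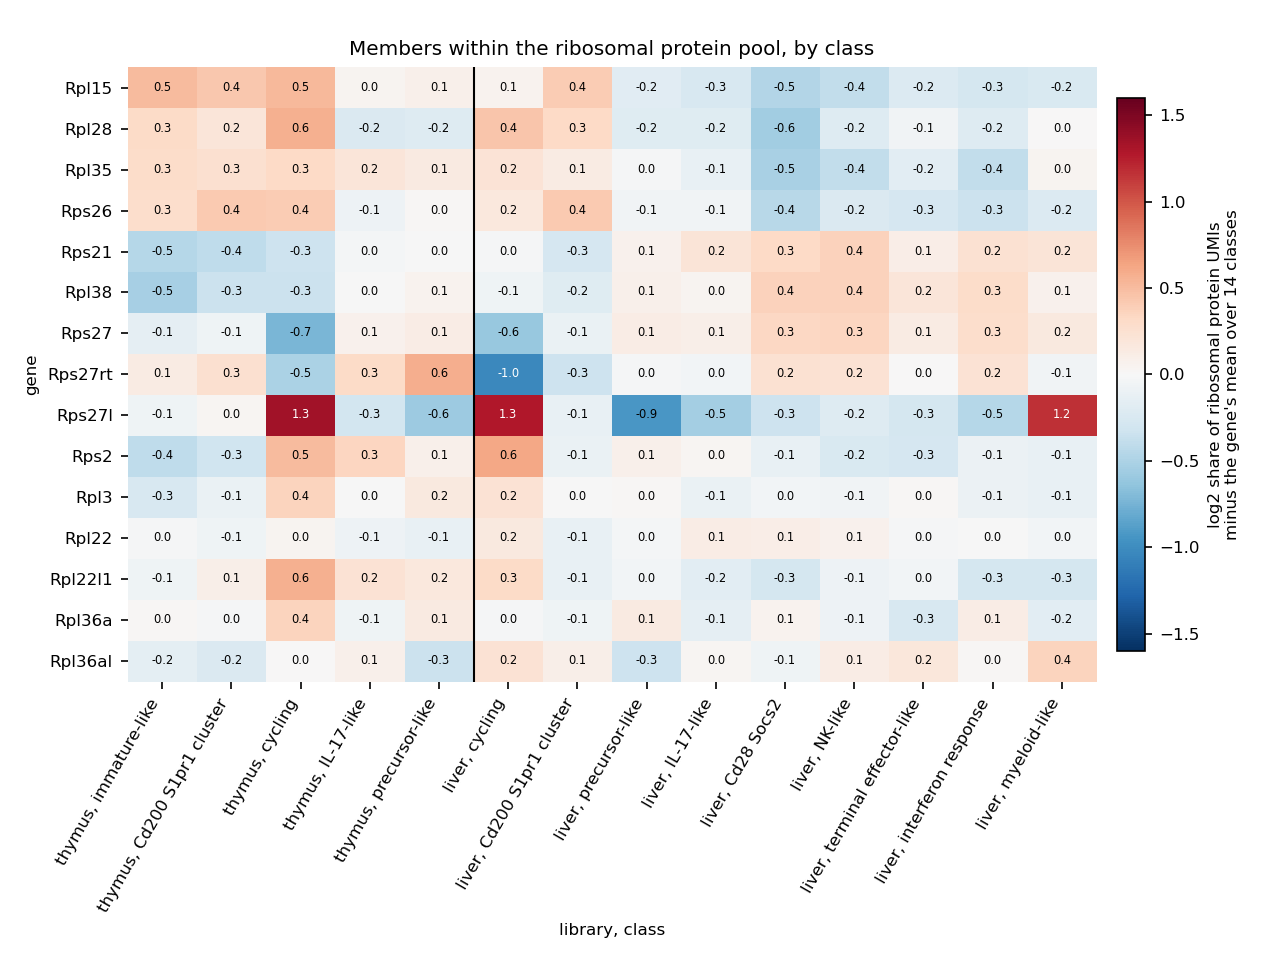
Color and printed value give the log2 share of ribosomal protein UMIs that a gene (rows) held in a class (columns, thymus left of the line and liver right), minus that gene's mean over the 14 classes. In thymic immature-like cells, thymic cycling cells and the thymic Cd200 S1pr1 cluster Rpl15, Rpl28, Rpl35 and Rps26 lie above their means and Rps21 and Rpl38 below. The hepatic Cd200 S1pr1 cluster has the same signs, as do hepatic cycling cells, where Rpl15 and Rps21 lie close to their means. The pattern does not hold in thymic IL-17-like and precursor-like cells. Rps27l is high in both cycling classes and in myeloid-like cells.

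Paralogs can replace a ribosomal protein in part of the ribosomes, so each was read as a share of the UMIs of the pair. Rpl22l1, the paralog that Rpl22 holds down in other cells, made up 45.6% of the Rpl22 and Rpl22l1 UMIs in the liver and 52.1% in the thymus. Rpl22 was 1204 CPM in the liver and 1424 CPM in the thymus, and Rpl22l1 was 1010 and 1548 CPM. The pair's share of Rpl22l1 was highest in cycling cells of the thymus, 58.2%, followed by thymic IL-17-like (54.5%) and precursor-like cells (54.2%), and lowest in the hepatic Cd28 Socs2 class, 42.6%. In each of the 4 classes found in both libraries it was lower in the liver, for example 44.3% against 54.5% in IL-17-like cells and 51.9% against 58.2% in cycling cells. Both mRNAs were thus abundant in every class.

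Rps27l took 0.94% of the Rps27 and Rps27l UMIs in the liver and 2.17% in the thymus. It took 5.74% in thymic cycling, 5.04% in hepatic cycling and 2.81% in myeloid-like cells, and 0.69% to 2.04% in the other classes and immature-like clusters. Rpl36al, a retrogene of Rpl36a, took 31.3% of its pair in the liver and 28.6% in the thymus, from 25.1% in thymic precursor-like to 40.4% in myeloid-like cells. Rpl6l took 13.5% and 16.7%, and Rpl7l1, a nucleolar relative of Rpl7 that acts in ribosome assembly, 2.42% and 2.18%. Rpl39l was rare everywhere, at most 0.23% of its pair, in NK-like cells, and 127 of its 154 hepatic UMIs came from NK-like and Cd28 Socs2 cells. Rpl3l, typical of heart and skeletal muscle, had 7 UMIs in the liver, 5 of them in myeloid-like cells, and 16 in the thymus, and Rpl10l, typical of the testis, 2 and 1. These were the 2 members with fewer than 100 UMIs.

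Reads from near-identical copies limit what a single member's value means. In GENCODE M21 transcripts, 26 of 82 members shared over 50% of the 91-base windows near their 3′ ends with a transcript of another gene, and 16 shared none. The share was 85.6% for Rpl10, 77.7% for Rpl35, 75% for Rpl3, 63.0% for Rps2, 54.5% for Rpl15 and 50.6% for Rps26. The values of these members are therefore uncertain between copies. The shared part was 89.8% for Rps27rt and 45.1% for Rps27, 100% for Rpl36a, 73.4% for Rpl36al, 41.4% for Rpl28 and 40.4% for Rpl22l1. Rps21, Rpl39l and Rpl12 shared none, Rps27l 1.88% and Rpl38 23.2%. Rpl6l had no window, so what it shares with Rpl6 was not measured.

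The wider translation machinery was read through lists of genes outside the rule. Between the libraries 2 of the 6 other cytosolic ribosomal protein genes had a log2 ratio of -0.5 or lower and 0 of 0.5 or higher, beside 34.1% and 19.5% of all genes. Rplp0, the base of the ribosomal stalk, was 3590 CPM in the liver against 6742 CPM in the thymus, and Rpsa 2374 against 3760 CPM, while Rplp1, Rplp2 and Fau differed by 0.09 or less on the log2 scale. Of 16 translation factors and TOP mRNAs found, 8 were lower by 0.5 or more and 1 higher, with a median of -0.49. Eef2, the translocase of elongation, was 1448 against 2283 CPM, Eif3h 480 against 824 CPM and Naca, which binds nascent chains, 976 against 1689 CPM. Eef1a1, with the most UMIs of the list, was 5292 against 6044 CPM. The exception was Eif4a2, an initiation helicase, at 491 against 230 CPM. Of 16 genes of ribosome biogenesis 4 were lower and 1 higher (median -0.18), of 8 of RNA polymerase I and its regulators 2 and 1 (-0.29), and of 76 mitochondrial ribosomal proteins 21 and 0 (-0.25). Of the 10 genes of the Myc and mTOR list 4 were lower and 3 higher (-0.45), with Myc at 56.6 against 8.61 CPM.

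In cycling cells of the thymus all 16 genes of ribosome biogenesis were 0.5 or more higher than in immature-like cells, where 20.6% of all genes were, with a median of 1.13. Npm1, a nucleolar chaperone, was 1909 against 1129 CPM, Ncl 789 against 423 CPM, Nop10 333 against 135 CPM and Nop58 159 against 53.5 CPM. Mitochondrial ribosomal proteins followed, with 41 of 76 higher, 0 lower, where 23.9% of all genes were lower, and a median of 0.52. The members of the rule had a median of -0.06, the 6 other cytosolic ribosomal proteins -0.08 and the translation factors -0.06. These ratios compare shares of all UMIs. The median thymic cycling cell held 2085 ribosomal protein UMIs beside 4959 other UMIs, and the median immature-like cell 1006 beside 2182. Hepatic cycling cells showed 11 of 15 biogenesis genes and 40 of 73 mitochondrial ribosomal proteins 0.5 or more higher than the Cd28 Socs2 class, where 25.3% of all genes were, and 0 of either lower, where 26.7% were, beside a median of 0.00 for the members.

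In precursor-like cells of the liver, set against the Cd28 Socs2 class, 25 of 80 members were 0.5 or more higher and 0 lower, where 6.25% and 21% of all genes were. The translation factors had a median of 0.33 (3 of 16 higher, 0 lower), the biogenesis genes 0.35 (2 of 16 higher, 0 lower) and the mitochondrial ribosomal proteins -0.21 (0 of 75 higher, 8 lower), which is near the median of -0.19 for all genes. Since the shares of a cell sum to a whole, more mRNA of the members and less of the rest cannot be told apart.

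**Figure D5:**
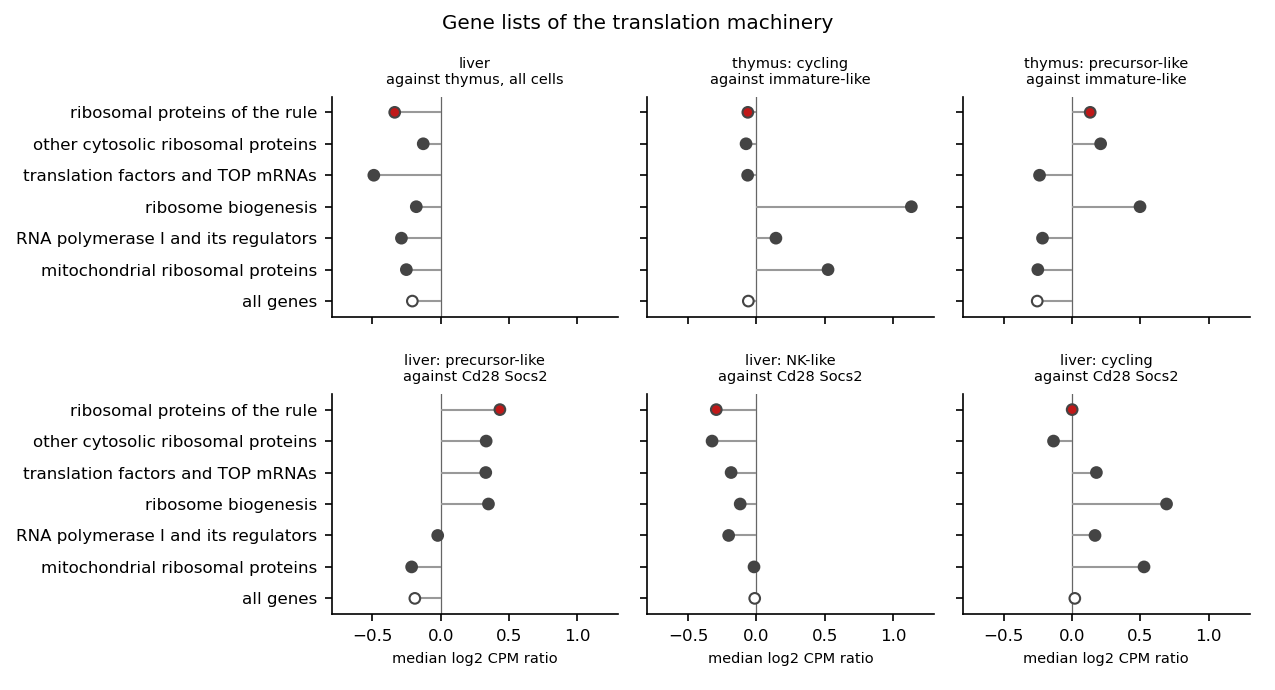
Each point is the median log2 CPM ratio (horizontal axis) over a gene list (vertical axis) in the comparison named above the panel, with the ribosomal protein genes of the rule in red and all genes with at least 100 UMIs as an open circle. Read as shares of all UMIs, ribosome biogenesis genes stand at 1.13 in thymic cycling cells and the members at -0.06. The members lead the lists in hepatic precursor-like cells at 0.43.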

How the data were processed

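Both libraries were made on the 10x 3′ platform, and the values the authors deposited are UMI counts for each gene in each cell barcode, not normalized. The submitters' processing notes name mm10, Cell Ranger and Seurat 3.0; the Cell Ranger version and the annotation are not given in the sources used here. The counter decides how reads shared by near-identical genes are assigned, which bears on this family.

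Cells were filtered as described in the report. Scrublet (scanpy 1.11.5) called 4 hepatic and 2 thymic cells, too few for a working caller, so no doublets were removed. Clusters were made over both libraries in Seurat 5.3.0 (R 4.3.3) (log-normalized values, the 2000 most variable genes, 30 components, resolution 0.6), after ribosomal protein genes, their -ps rows and mitochondrial genes had been left out of totals and variable genes. Each cluster was called after the class with the highest mean log2 marker ratio (10 CPM added), by limits set after the clusters were seen. A class was described in a library where it had at least 20 cells, so the B cell-like cluster was left out.

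UMIs were summed per library and class. Log2 ratios had 0.5 UMI added to each count and were read only where the 2 groups together held at least 100 UMIs of a gene. Shares carry exact binomial and ratios exact conditional binomial 95% intervals (scipy 1.17.1). Named are, per comparison, up to 5 departing members furthest from the median each way, the paralogs with their partners, the 5 members with the most UMIs, members under 100 UMIs, and up to 4 genes per list by UMIs or by ratio. The rule on departures was tested on simulated counts at whole-library depth, with changes well past the limit. That simulation does not cover departures near the limit or classes of few cells. The symbol rule fixed the members, but the family, lists and markers were chosen with earlier results of these data known. Alternatives changed the cell filter, denominator, thinning, clustering and the limits of a departure. Counts cover all members and list genes, but some of them are not reported here by name.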

Additional observations from a re-analysis of the deposited data

Results flagged for a closer look

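The share of ribosomal protein UMIs in IL-17-like cells minus that in cycling cells was 2.13 percentage points in the liver and -1.44 in the thymus. The 2 tissues thus moved in opposite directions under the same contrast, and this difference was not tested. The hepatic value rests on 41 cycling cells, whose summed myeloid list stood at 531 CPM against 19.3 CPM in thymic cycling cells.

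The 16 rows marked -ps, which the rule leaves out, held 64701 UMIs in the liver and 73352 in the thymus, 0.27% and 0.43% of all UMIs, and there were no control samples to set them against. Of these, Rps26-ps1 had the lowest log2 ratio, -1.38 (107 CPM in the liver and 279 CPM in the thymus), beside -0.87 for Rps26 itself. The other rows with UMIs were also lower in the liver, by -0.51 or more, except Rpl9-ps1 (8 against 2 UMIs). The cause of this shared shift was not tested.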

How the results depend on the processing

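The liver stood below the thymus, and the 2 class differences below kept their sign, under every alternative that gave a value for them. Counting intervals are so narrow that small shifts leave them. The ribosomal protein share of the liver (24.8%) was 24.9% with at least 500 genes, 25.4% without mitochondrial UMIs in the denominator, 24.4% as the mean of cells, 27.2% with the other ribosomal proteins and the -ps rows added, 23.8% without the member with the most UMIs, 24.5% after thinning to 1500 UMIs (5 hepatic and 7 thymic cells left out) and 24.8% without the highest Scrublet scores. That of the thymus (30.9%) was 31.7%, 30.7%, 33.9%, 29.96%, 30.8% and 30.9% under the last 6 of these. The difference between hepatic precursor-like and NK-like cells (13.2 points) was 13.8 at resolution 0.4, 14.1 at 0.8, 13.7 with no gene left out before clustering, 13.9 with each library clustered alone, 13.7 without mitochondrial UMIs, 12.8 as the mean of cells and 13.8 without the highest Scrublet scores. The difference between thymic immature-like and IL-17-like cells (3.46 points) was 3.69 as the mean of cells and 3.66 without the highest Scrublet scores. With departures from 0.3, by construction a lower limit, 22 members departed between the libraries, beside 68% of all genes. Over the 17 comparisons (that of the immature-like clusters aside) 27.2% to 70.5% of all genes did, each time a larger share than of the members. Against thymic immature-like cells there were then 16 in IL-17-like, 15 in cycling and 19 in precursor-like cells. In that order 68.5%, 63.8% and 65.3% of all genes departed. Against the Cd28 Socs2 class there were 25 in the Cd200 S1pr1 cluster, 7 in IL-17-like, 5 in NK-like, 34 in cycling, 3 in interferon-response, 21 in myeloid-like, 9 in precursor-like and 7 in terminal effector-like cells. The shares of all genes were 70.5%, 47.4%, 27.2%, 69.8%, 54.7%, 67.4%, 43.5% and 50.4% in that order. Between the libraries within a class there were 4 in the Cd200 S1pr1 cluster, 7 in IL-17-like, 7 in cycling and 5 in precursor-like cells. There 59.8%, 46.8%, 63.7% and 50.3% of all genes departed in that order. At resolution 0.8 the counts were 9 in thymic precursor-like cells, a class of 40 cells there, 1 in NK-like and 2 in terminal effector-like cells. Between the libraries they were 2 in the Cd200 S1pr1 cluster and 3 in cycling cells. With no gene left out before clustering they were 2 in NK-like and 1 in terminal effector-like cells and 3 between the libraries in the Cd200 S1pr1 cluster, and with the summed ratio as the centre 1 in terminal effector-like cells. The share of all genes under these clustering and centre settings is not given here, so these counts are not read as results about the members. The cause of these shifts was not tested. Of single departures, 233 values stayed within their counting interval and 32 left it; of class shares, 39 and 56. Clustering the thymus alone gave no precursor-like and no immature-like class, the reference of the thymic comparisons, so this alternative gave no value for them. No paired analysis was possible because each tissue has 1 library and the labels carry no replicate numbers.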
